A study of Mus musculus with 6 samples.

Results

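The 49 genes described here encode proteins of the complement and coagulation systems: complement components, their regulators and receptors, clotting factors, and the enzymes and inhibitors of fibrinolysis. They were listed by gene symbol, with earlier results of these data known. All 49 had a row among the 17460 gene symbols of the liver RNA-seq table. The livers came from C57BL/6 mice aged 9 months that had eaten a non-alcoholic steatohepatitis (NASH) diet rich in fructose, trans fat and cholesterol for 24 weeks. There were 3 control livers and 3 livers with liver-specific inactivation of Blnc1 (LKO), a nuclear long noncoding RNA that acts with the lipid-sensing receptor LXR. The LKO livers were made by tail-vein injection of an adenovirus carrying a pair of guide RNAs against Blnc1 into mice with a Cas9 transgene. This vector reaches hepatocytes far better than the other cells of the liver. The labels describe the comparison livers only as control and do not name their vector. Whether those mice carried the Cas9 transgene is not given here. The value columns are named WT and KO, and they were matched to the control and LKO labels by number. Diet, age and strain were shared by both groups, so the comparison is of LKO with control livers under the diet and not of the diet itself. The table has no row for Blnc1, and its loss was not measured here.

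Complement is a cascade of plasma proteins in which C1q or mannose-binding lectins recognise a target, convertases cleave C3, and the terminal components assemble into a pore in the target membrane. Coagulation is a parallel cascade in which tissue factor and the contact system lead to thrombin, which turns fibrinogen into fibrin, while plasmin dissolves the clot. Hepatocytes secrete most of these proteins into blood, many of them as acute-phase proteins, whereas C1q in liver comes mainly from macrophages and factor VIII from sinusoidal endothelial cells.

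The promoters of the fibrinogen chains and of the C8 alpha and beta chains are shown first, because these chains are encoded side by side, the levels of the fibrinogen chains went together across livers, and those of C8a and C8b did so only in part, as described further on. Sequences are the RefSeq reference for GRCm38.p6, from 250 bases before the transcription start to 50 bases after it, 5′ to 3′ on the strand of the gene. Capitals mark matches on either strand to an interleukin-6 response element (CTGGGAA) or a STAT site (TTCNNNGAA). These motifs can overlap each other, but no matches overlapped in these 5 promoters.
Fgg, chr3:83007474-83007773, plus strand: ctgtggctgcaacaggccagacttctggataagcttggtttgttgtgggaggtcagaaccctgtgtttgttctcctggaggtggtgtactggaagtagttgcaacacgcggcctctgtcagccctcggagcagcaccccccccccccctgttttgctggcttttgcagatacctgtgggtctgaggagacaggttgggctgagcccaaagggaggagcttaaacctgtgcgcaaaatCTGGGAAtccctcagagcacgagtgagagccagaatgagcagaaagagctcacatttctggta
Fga, chr3:83025903-83026202, plus strand: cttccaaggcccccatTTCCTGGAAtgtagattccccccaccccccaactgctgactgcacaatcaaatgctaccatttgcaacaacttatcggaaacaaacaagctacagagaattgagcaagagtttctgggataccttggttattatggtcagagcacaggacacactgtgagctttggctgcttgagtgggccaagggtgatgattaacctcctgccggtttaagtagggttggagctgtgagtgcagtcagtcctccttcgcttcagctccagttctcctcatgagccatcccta
Fgb, chr3:83049814-83050113, minus strand: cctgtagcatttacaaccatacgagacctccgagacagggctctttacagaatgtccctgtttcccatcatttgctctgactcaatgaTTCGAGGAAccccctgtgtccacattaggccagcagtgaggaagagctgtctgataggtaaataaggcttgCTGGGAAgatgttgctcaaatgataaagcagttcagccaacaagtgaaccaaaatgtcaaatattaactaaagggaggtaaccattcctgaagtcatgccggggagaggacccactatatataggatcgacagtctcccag
C8b, chr4:104766067-104766366, plus strand: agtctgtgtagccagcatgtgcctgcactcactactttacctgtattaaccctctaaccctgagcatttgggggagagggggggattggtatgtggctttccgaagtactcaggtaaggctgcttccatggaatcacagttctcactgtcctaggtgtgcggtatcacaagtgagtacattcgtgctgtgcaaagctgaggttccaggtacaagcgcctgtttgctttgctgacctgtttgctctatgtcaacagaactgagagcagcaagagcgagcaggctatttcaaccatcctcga
C8a, chr4:104876349-104876648, minus strand: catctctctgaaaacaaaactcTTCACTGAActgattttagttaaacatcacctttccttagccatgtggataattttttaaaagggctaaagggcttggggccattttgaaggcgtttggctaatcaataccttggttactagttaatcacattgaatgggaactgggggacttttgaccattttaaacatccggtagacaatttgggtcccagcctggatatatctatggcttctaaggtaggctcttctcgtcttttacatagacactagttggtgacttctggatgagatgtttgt
The Fgg promoter had a single match, the interleukin-6 response element at position -13 from the start. The Fga promoter held a STAT site at -234. Fgb was alone among the 5 in holding both motifs, at -91 for the interleukin-6 response element and -162 for the STAT site. C8a had a STAT site at -228, and neither motif was found in the C8b window. Of the 49 genes, 36 had a sequence in the promoter table, with 37 promoters between them. The interleukin-6 response element was in 6 of the 37 (16.2%) and in 11.1% of all 32851 promoters of that length, and the STAT site was in 7 (18.9%, against 8.3%). These are matches of letters and not measured binding.

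Levels are normalised read counts, that is, reads per gene divided by the scaling factor of the liver. The livers held 65384969 to 89350181 reads in all, and the 49 genes took 3.243% to 3.605% of the total value in the control livers and 3.428% to 3.54% in the LKO livers. The lowest member value in any liver rested on 295 reads (C5ar1) and the highest on 396546 (C3). Counting error is relatively larger for the members with few reads, such as Plat and Plau. Its part in their spread between livers was not measured. None of 9 hepatocyte markers had an unadjusted p under 0.05 (Tf, the tenth, has no row), and their summed level was 5805520 to 6478690 in controls and 5645540 to 6843490 in LKO livers.

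Per kilobase of exon, Fgg and Fga, which encode fibrinogen chains, and C3 were at the top of the list. Mean control levels were 77722 per kilobase for Fgg, 73482 for Fga and 69804 for C3, followed by Vtn (vitronectin, 58328), Clu (clusterin, 52591) and Fgb (50703). With the longest transcript as the length, Clu came first at 99864 and Fgg second at 93436. At the low end were Plat (tissue plasminogen activator, 99 per kilobase), F8 (factor VIII, 228), C5ar1 (the C5a receptor, 232) and F3 (tissue factor, 296), each of them known from cells other than hepatocytes.

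No member passed the test for a difference between LKO and control livers. Differences are given as LKO minus control on the scale of log2(value + 1), with the standard error (SE) of limma. The adjusted p over all genes tested ranged from 0.548 to 0.999 among the 49, and the smallest was 0.543 in edgeR and 0.0663 in DESeq2, both for Plau. Over all genes, 0.00578% of 17297 genes (1 gene) had an adjusted p under 0.05 in limma, against 0 of 49 members. In DESeq2 the share was 0.538% of the genes with an adjusted p (84 of 15617), against 0 of 49 members. In all, 30 members had a mean above control and 19 below, and 30 of the 49 differed by less than 0.1. The median difference was 0.03, with -0.00099 over all genes. The SE of the members ran from 0.05 to 0.31 with a median of 0.09, close to the 0.11 of all genes.

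Below the adjusted threshold, 7 of the 49 members (14.3%) had an unadjusted p under 0.05, against 5.68% of all genes tested. The count rested on single livers, with 1 without control 3, 3 without control 1 or LKO 3, 4 without LKO 1, 6 without control 2 and 10 without LKO 2. The share of all genes at that p in these fits is not given here. Of the 7, 5 lay higher in LKO livers (C6, C8b, C8g, Cfd and F11) and 2 lower (C9 and Plau). The groups did not overlap for 6 members (12.2%), against 10.6% of all genes. These were C8g, F11 and Kng1 above, and C3, Pros1 and Plau below. The limma SEs and p-values draw partly on genes of similar level, not only on each gene's own spread between livers. They apply to these livers, since the labels do not say how the animals were housed or processed. An exact permutation test of 3 against 3 cannot go below 0.1. In whole liver, fewer cells of a type and less RNA per cell cannot be told apart.

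**Figure D1:**
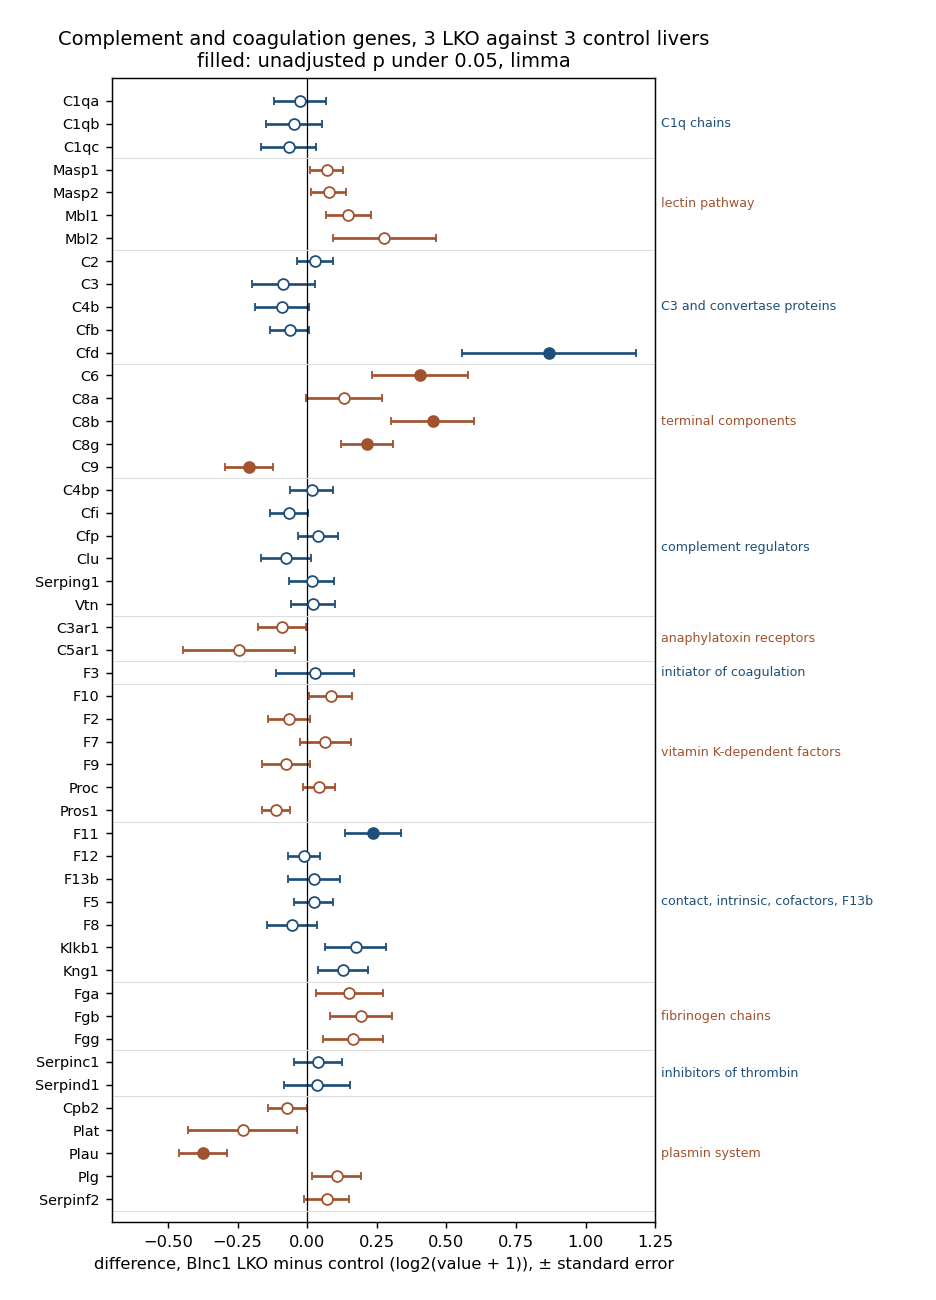
Difference between LKO and control livers for the 49 genes, grouped by role, on the log2(value + 1) scale (x axis), with bars of 1 standard error from limma. Filled points have an unadjusted p under 0.05. Most points lie within 0.1 of 0, and Cfd at 0.87 is the farthest from it.

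**Figure D2:**
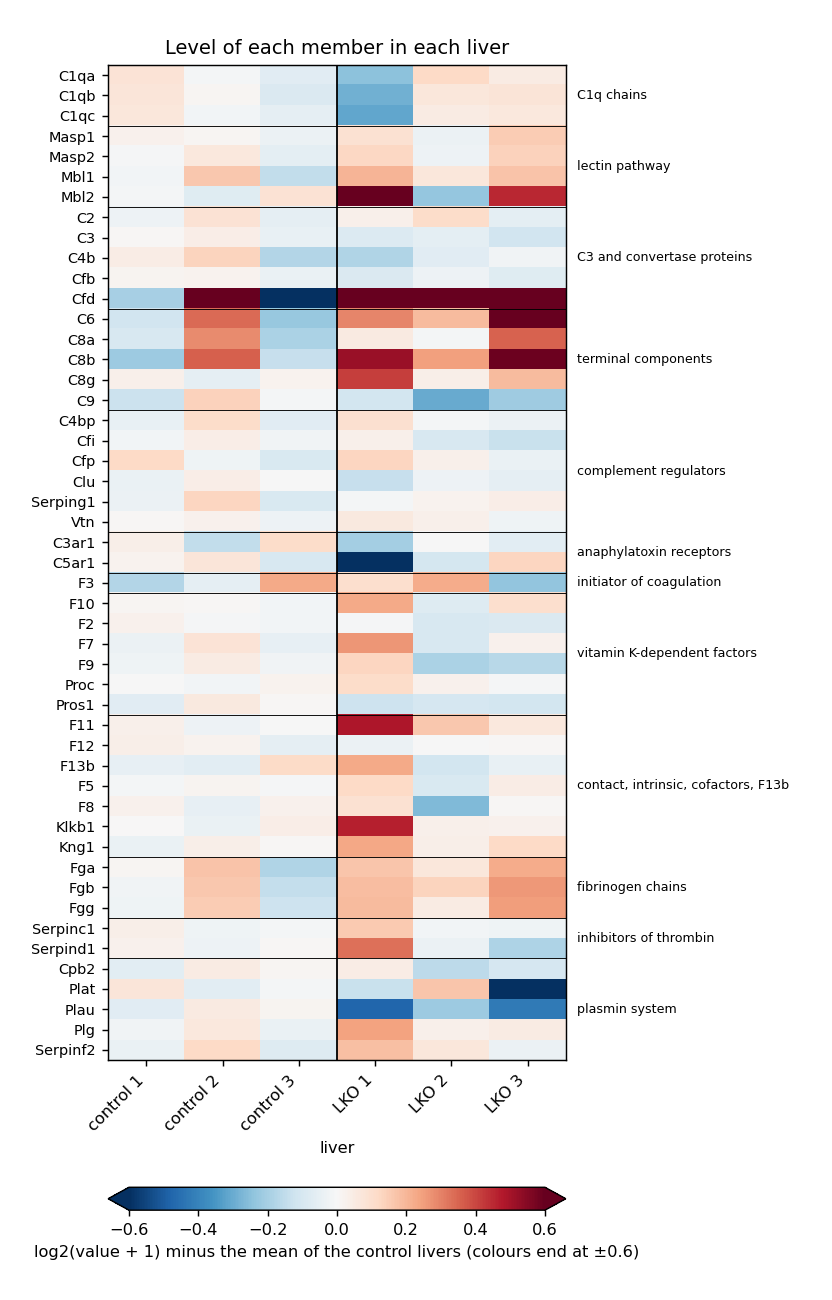
Level of each member (rows, by role) in each liver (columns) as log2(value + 1) minus the mean of the 3 control livers, with colours ending at 0.6 in either direction. Cfd, C6 and C8b are above the control mean in control 2 and in all 3 LKO livers, C8a mainly in control 2 and LKO 3, while the C1q chains are low in LKO 1 alone.

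The terminal components form the membrane attack complex, in which C6 and C8 bind in turn and C9 polymerises into the pore. Of the 5, 4 had an unadjusted p under 0.05, against 5.68% of all genes tested. C6, C8b and C8g lay on the higher side and C9 on the lower side. C8b, which encodes the beta chain of C8 (chr4:104766317-104804548), measured 4233, 6311 and 4473 in control livers and 7045, 5841 and 7406 in LKO livers. Control 2 lay above LKO 2, so the groups overlapped. The mean was 5006 ± 1137 (SD, n = 3) in controls and 6764 ± 819 in LKO livers, a difference of 0.45 (SE 0.15, limma adjusted p = 0.818). With each liver left out in turn it stayed between 0.34 and 0.63, and 3 of the 6 fits kept an unadjusted p under 0.05.

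C6 (chr15:4727175-4814967) had values of 15488, 21230 and 14349 in control livers. In LKO livers it was 20524, 19105 and 27869. Again control 2 was the high control, above both LKO 1 and LKO 2. The difference was 0.40 (SE 0.17, limma adjusted p = 0.87), and it was 0.24 without LKO 3 and 0.57 without control 2.

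C8g, the gamma chain (chr2:25498651-25501719), was nearly flat in controls at 20926, 19734 and 20819. The LKO livers had 27344, 21018 and 23343, all above the controls, though LKO 2 exceeded control 1 by a margin far smaller than the SD of the LKO livers. The difference of 0.21 (SE 0.09, limma adjusted p = 0.873) was 0.11 without LKO 1. C8a, the alpha chain and neighbour of C8b, measured 34492, 44950 and 32340 in controls and 38242, 36603 and 47160 in LKO livers, a difference of 0.13 (SE 0.14, limma adjusted p = 0.973). Control 2 was thus the second highest of the 6 livers for C8a.

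C9 (chr15:6445327-6498751) was the highest terminal component per kilobase in controls, at 16682. Controls 1, 2 and 3 had 38940, 46831 and 42149, and LKO 1, 2 and 3 had 39408, 34499 and 36661. Only control 1 fell within the LKO range. The difference was -0.21 (SE 0.09, limma adjusted p = 0.858), and it was -0.14 without control 2.

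Genes known for higher expression in male than in female mouse liver moved in part with C6 and C8b. C8g and C9 had the same order of LKO livers as these genes, with LKO 1 highest and LKO 2 lowest. In LKO livers C8g lay above all controls, as these genes did, but it was lowest in control 2. C9 was highest in control 2 and had a lower mean in LKO livers. The list of 8 (Elovl3, Cyp4a12a, Cyp2d9, Cyp7b1, Hsd3b5, Slco1a1, Mup20 and Serpina12) was written after the values were seen. Its mean log2 level relative to the control mean was -0.23, 0.60 and -0.37 in controls 1, 2 and 3. In LKO 1, 2 and 3 it was 1.65, 0.70 and 1.38, so control 2 lay near LKO 2, as it did for C6, C8b and Cfd. Its part in the results on these genes was not tested.

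C8 contains one chain of each kind. Per kilobase of exon, the shares of C8a, C8b and C8g in control livers were 39.3% ± 4.19, 7.53% ± 1.16 and 53.2% ± 5.27 (SD, n = 3). In LKO livers they were 37.5% ± 3.97, 8.89% ± 0.299 and 53.6% ± 4.18. The C8b share was 8.68% to 9.23% in LKO livers and 6.61%, 8.84% and 7.14% in controls, so only control 2 reached the LKO range. C8b was the least abundant chain in every liver, also when the longest transcript was used as the length (7.32% in controls).

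The chains of fibrinogen, the precursor of the fibrin clot, all had higher means in LKO livers, and none had an unadjusted p under 0.05 in limma. In DESeq2 the unadjusted p was 0.038 for Fgb (adjusted p = 0.862), 0.134 for Fga and 0.0786 for Fgg. Their genes lie together on chromosome 3, with Fgg at chr3:83007724-83015049, Fga 11026 bases on at chr3:83026076-83033627, and Fgb 6513 bases further at chr3:83040141-83049863 on the opposite strand. Fga measured 221595, 247507 and 194443 in controls and 246880, 230766 and 256581 in LKO livers. Fgb was 189541, 215540 and 174454, against 218915, 211024 and 230265. Fgg was 159460, 179931 and 148625, against 185195, 168049 and 193062.

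For all 3 chains the order of the livers was similar, with LKO 3 highest and control 3 lowest, and control 2 above LKO 2. The differences were 0.15 (SE 0.12) for Fga, 0.19 (SE 0.11) for Fgb and 0.16 (SE 0.11) for Fgg, with limma adjusted p of 0.971, 0.932 and 0.951. Per kilobase, Fga, Fgb and Fgg made up 36.4%, 25.1% and 38.5% of the fibrinogen reads in controls and 36.0%, 25.6% and 38.5% in LKO livers, with SDs of 0.139 to 0.668 percentage points. The proportions of the chains varied less from liver to liver than their levels did. Fga, Fgb and Fgg each carried at least 1 of the motifs in the promoters printed above, but neither motif was common to all of them.

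**Figure D3:**
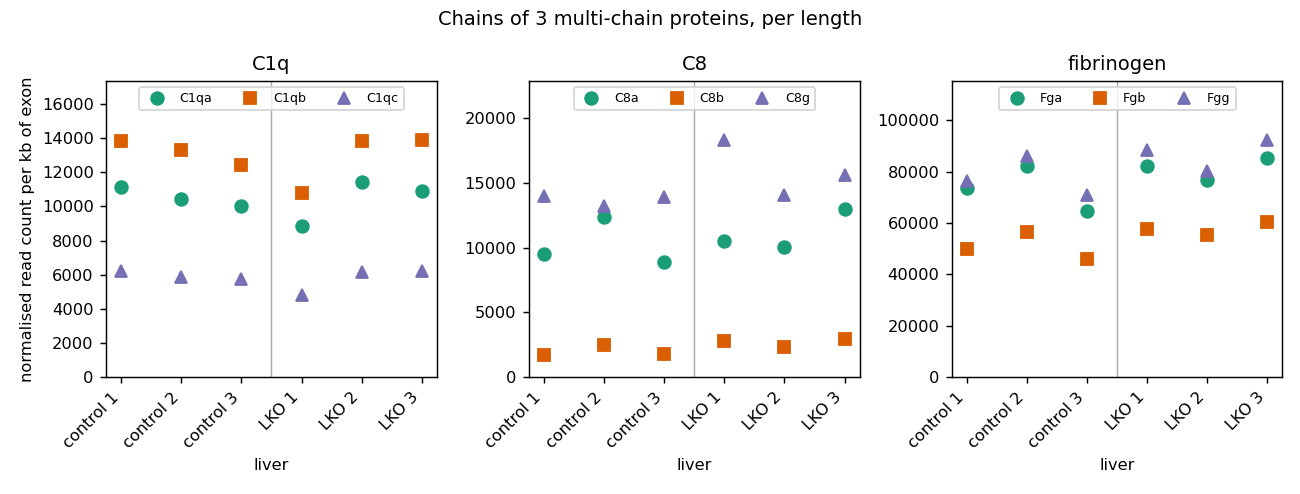
Normalised read count per kilobase of exon for the chains of C1q, C8 and fibrinogen (y axes, from 0) in each liver (x axes). C8b is the lowest C8 chain in each liver, and the fibrinogen chains go up and down together from liver to liver.

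C1q, the recognition molecule of the classical pathway, had group means close to each other for each of its chains. C1qa, C1qb and C1qc lie in a row on the minus strand of chromosome 4, 2851 to 3616 bases apart. C1qb, the highest of them per kilobase in both groups, measured 15089, 14456 and 13509 in controls and 11735, 15031 and 15109 in LKO livers. C1qa was 11571, 10841 and 10450, against 9221, 11900 and 11329. C1qc was 12036, 11355 and 11037, against 9247, 11867 and 11985. LKO 1 was the lowest of the 6 livers for each chain, while LKO 2 and LKO 3 lay within or just outside the control range.

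The differences were -0.03 (SE 0.09) for C1qa, -0.05 (SE 0.10) for C1qb and -0.07 (SE 0.10) for C1qc, with limma adjusted p of 0.98 to 0.996. Without LKO 1 they were 0.09, 0.07 and 0.06, so the sign rested on that liver, and C1qa also changed sign without control 1. The shares of the A, B and C chains were 35.5%, 44.5% and 20.0% in controls and 36.0%, 44.3% and 19.7% in LKO livers per kilobase of exon. With the longest transcript as the length the control shares were 31.7%, 39.7% and 28.7%.

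Among 30 further complement genes, 29 were in the table. Of these, 4 (13.8%, against 5.68% of all genes tested) had an unadjusted p under 0.05, all higher in LKO livers. None passed in limma or edgeR, and 2 passed in DESeq2. One of these was Fcna, ficolin A, a lectin pathway recognition protein made by liver macrophages. It measured 2549, 2576 and 2252 in controls and 3855, 2964 and 3406 in LKO livers without overlap (0.47, SE 0.10, limma adjusted p = 0.548, DESeq2 adjusted p = 0.00732). The other was Susd4, a membrane protein that inhibits complement, with 393, 602 and 341 in controls and 1139, 707 and 1086 in LKO livers (1.14, SE 0.24, limma adjusted p = 0.548, DESeq2 adjusted p = 0.00023).

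Vsig4, the complement receptor of resident Kupffer cells, was 1296, 2803 and 1504 in controls and 3432, 2640 and 5249 in LKO livers, a difference of 1.04 (SE 0.31, limma adjusted p = 0.737). Control 2 lay above LKO 2. C1ra, a protease that acts with C1q, differed by 0.15 (SE 0.06, limma adjusted p = 0.857). Hc, which encodes C5, and C7 complete the terminal pathway, and their differences were -0.03 (SE 0.11) and 0.11 (SE 0.16).

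Of 10 macrophage markers, 4 (40.0%, against 5.68% of all genes tested) had an unadjusted p under 0.05, all higher in LKO livers. They were Adgre1 (0.15, without overlap), Clec4f (0.46), Timd4 (1.10) and Marco (3.03, without overlap). Cd68 (-0.13), Mpeg1 (-0.11, without overlap) and Cd14 (-0.07) were lower, and Csf1r (0.12), Lyz2 (0.05) and Cd5l (0.02) were higher. Marco, a scavenger receptor of macrophages, was 33, 87 and 23 in controls and 794, 96 and 509 in LKO livers. The summed level of the 10 markers was 105550 to 113808 in controls and 110275 to 115915 in LKO livers, and no marker was at 0. In LKO 1, where C1q was lowest, Cd68 was also the lowest of the 6 livers (2968, against 3947 to 4022 in the others), while Clec4f, Marco and Timd4 were the highest. The part of macrophage number or type in these values was not tested.

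**Figure D4:**
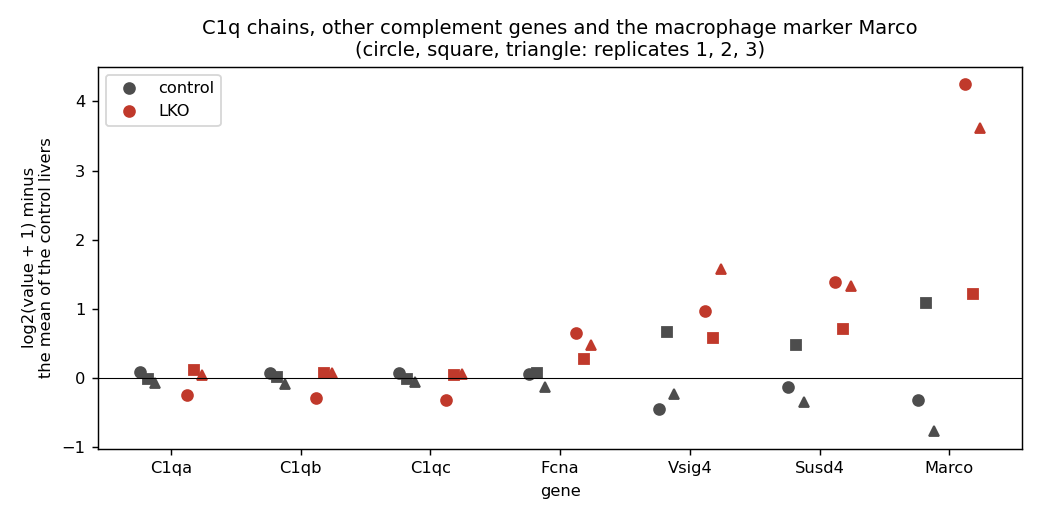
Level of the C1q chains, of the complement genes Fcna, Vsig4 and Susd4 and of the macrophage marker Marco in each liver, as log2(value + 1) minus the mean of the 3 control livers (y axis). The C1q chains stay within 0.4 of the control mean in every liver, and Marco in LKO 1 and LKO 3 lies more than 3 above it.

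The lectin pathway genes were all on the higher side in LKO livers, with a median difference of 0.11 and no unadjusted p under 0.05. Mbl2, mannose-binding lectin C and the highest of the 4 per kilobase, measured 20264, 19416 and 21735 in controls and 31188, 17436 and 27996 in LKO livers. LKO 2 was the lowest of all 6 livers, and the other LKO livers were the highest, so the difference of 0.28 had an SE of 0.19 (limma adjusted p = 0.951). Mbl1, the other mannose-binding lectin, differed by 0.15 (SE 0.08). Masp1 and Masp2, the proteases activated by lectin binding, differed by 0.07 and 0.08.

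C3, the component on which all activation routes converge, was slightly lower in LKO livers. It measured 360562, 368795 and 347655 in controls and 339387, 344164 and 331319 in LKO livers without overlap. The difference was -0.09 (SE 0.11, limma adjusted p = 0.978). Cfb and C2, neighbouring genes for the serine proteases of the convertases that lie 85 bases apart on chromosome 17, differed by -0.06 and 0.03. C4b differed by -0.09, and its counts may include reads of its near-identical copy C4a. C4a was counted separately and differed by 0.45 (SE 0.27, limma adjusted p = 0.944). How reads that match both genes were counted is not stated.

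Cfd, factor D or adipsin, the protease that cleaves factor B, had the widest difference of the 49 and also the widest spread. Its values were 773, 1596 and 568 in controls and 1789, 1435 and 1664 in LKO livers (chr10:79890853-79892655). Controls 1 and 3 lay far below the LKO livers, and control 2 lay within their range. The difference was 0.87 (SE 0.31, limma adjusted p = 0.84), 0.55 without control 3 and 1.29 without control 2. Adipocytes are the best known source of Cfd. The adipocyte markers Adipoq, Plin1 and Retn, chosen after the values were seen, summed to 0.932 to 4.26 counts in controls and 2.38 to 7.52 in LKO livers, and the part of adipocytes in the Cfd values was not tested.

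All 6 complement regulators differed by less than 0.1 in either direction. They were Cfi and C4bp, which inactivate C3b and C4b together, Cfp (properdin, which stabilises the alternative convertase), Serping1 (C1 inhibitor), Vtn and Clu. Vtn, the highest per kilobase of exon, measured 118782, 120568 and 115867 in controls and 123215, 121037 and 116202 in LKO livers (0.02, SE 0.08, limma adjusted p = 0.996).

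The anaphylatoxin receptors, carried by myeloid cells, had means below control. C3ar1 was 1761, 1553 and 1858 in controls and 1492, 1716 and 1643 in LKO livers (-0.09, SE 0.08). C5ar1 was 605, 628 and 557 in controls and 351, 554 and 653 in LKO livers (-0.24, SE 0.20, limma adjusted p = 0.971). LKO 3, the highest liver for C5ar1, also had the highest summed level of the 5 neutrophil markers in the table (Ly6g, the sixth, has no row), 5333 against 1020 to 1587 in the other livers, and LKO 1 was the lowest for both. No neutrophil marker was at 0, and their part in the C5ar1 values was not tested.

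Among the clotting factors, F11 alone had an unadjusted p under 0.05. Factor XI (chr8:45241174-45262031) activates factor IX in the intrinsic pathway. It measured 3538, 3388 and 3456 in controls, a narrow range, and 4841, 3868 and 3611 in LKO livers, all higher. The difference was 0.24 (SE 0.10, limma adjusted p = 0.87), and it was 0.11 without LKO 1. Klkb1, plasma prekallikrein, lies 4657 bases away on the same strand and was also highest in LKO 1, at 8455 against 5953 to 6295 in the other livers (0.17, SE 0.11).

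Kng1, kininogen and the highest of the contact and intrinsic group per kilobase, was 126202, 132990 and 130598 in controls and 152764, 133000 and 141196 in LKO livers. LKO 2 exceeded control 2 by a margin far smaller than their SDs, and the difference was 0.13 (SE 0.09, limma adjusted p = 0.959). Reads of the paralog Kng2 may be counted in it. Factor XII, factor V and the factor XIII B subunit differed by -0.01, 0.02 and 0.03. F8 differed by -0.06 (SE 0.09). Of 10 endothelial markers, 4 (40.0%, against 5.68% of all genes tested) were lower at an unadjusted p under 0.05, namely Stab1, Lyve1, Pecam1 and Cdh5. None of the 10 was at 0, and their sums were 41738 to 44033 in controls and 39573 to 41305 in LKO livers.

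The vitamin K-dependent proteins, which need gamma-carboxylation to bind membranes, were split with 3 above and 3 below control and no unadjusted p under 0.05. F2, prothrombin, the highest of them per kilobase, was 107001, 104726 and 103871 in controls and 104595, 98309 and 98903 in LKO livers (-0.06, SE 0.07). Pros1, protein S, the cofactor of activated protein C, measured 8920, 9708 and 9395 in controls and 8555, 8699 and 8656 in LKO livers, all lower. The difference was -0.11 (SE 0.05, limma adjusted p = 0.891). F7 and F10, neighbours 1498 bases apart on chromosome 8, differed by 0.07 and 0.08, F9 by -0.08 and Proc by 0.04.

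Tissue factor, which starts coagulation at a wound, was 658, 715 and 870 in controls and 797, 865 and 630 in LKO livers, and the difference between means was within the spread (0.03, SE 0.14). Of the thrombin inhibitors, Serpinc1 (antithrombin) measured 123445, 118360 and 119379 in controls and 134242, 118997 and 118359 in LKO livers (0.04, SE 0.09). Serpind1, heparin cofactor II, differed by 0.04 (SE 0.12).

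Plau had the smallest p of the 49. It encodes urokinase (chr14:20836660-20843385), which activates plasminogen on cell surfaces. The values were 923, 1005 and 979 in controls and 695, 832 and 720 in LKO livers, without overlap. Means were 969 ± 41.7 (SD, n = 3) and 749 ± 72.6, a difference of -0.37 (SE 0.09, limma adjusted p = 0.548). All 6 fits that left out a liver kept an unadjusted p under 0.05, with differences from -0.45 to -0.32. Plat, the other plasminogen activator, was 651, 592 and 612 in controls and 563, 693 and 373 in LKO livers (-0.23, SE 0.19, limma adjusted p = 0.971).

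Some markers of stellate cells and fibroblasts were lower where Plau was lower. Of 10, 4 (40.0%) were lower in LKO livers at an unadjusted p under 0.05 and at an adjusted p under 0.05 in DESeq2. The shares of all genes were 5.68% and 0.538%. The 4 were Col1a1 (-0.61), Col1a2 (-0.48), Col3a1 (-0.47) and Acta2 (-0.52). Dcn, Des, Lum and Pdgfrb differed by -0.11 to -0.02, and Lrat (0.16) and Reln (0.06) lay on the other side. None of the 10 was at 0, and their summed level was 116353 to 128866 in controls and 98178 to 116993 in LKO livers. LKO 2 was the LKO liver nearest to control both in that sum and for Plau. Their part in the Plau values was not tested.

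Plasminogen itself, Plg, the highest of the plasmin group per kilobase, measured 98308, 104286 and 97183 in controls and 117939, 102074 and 103308 in LKO livers (0.11, SE 0.09, limma adjusted p = 0.971). Serpinf2, the plasmin inhibitor, and Cpb2, which protects fibrin from lysis, differed by 0.07 and -0.07.

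**Figure D5:**
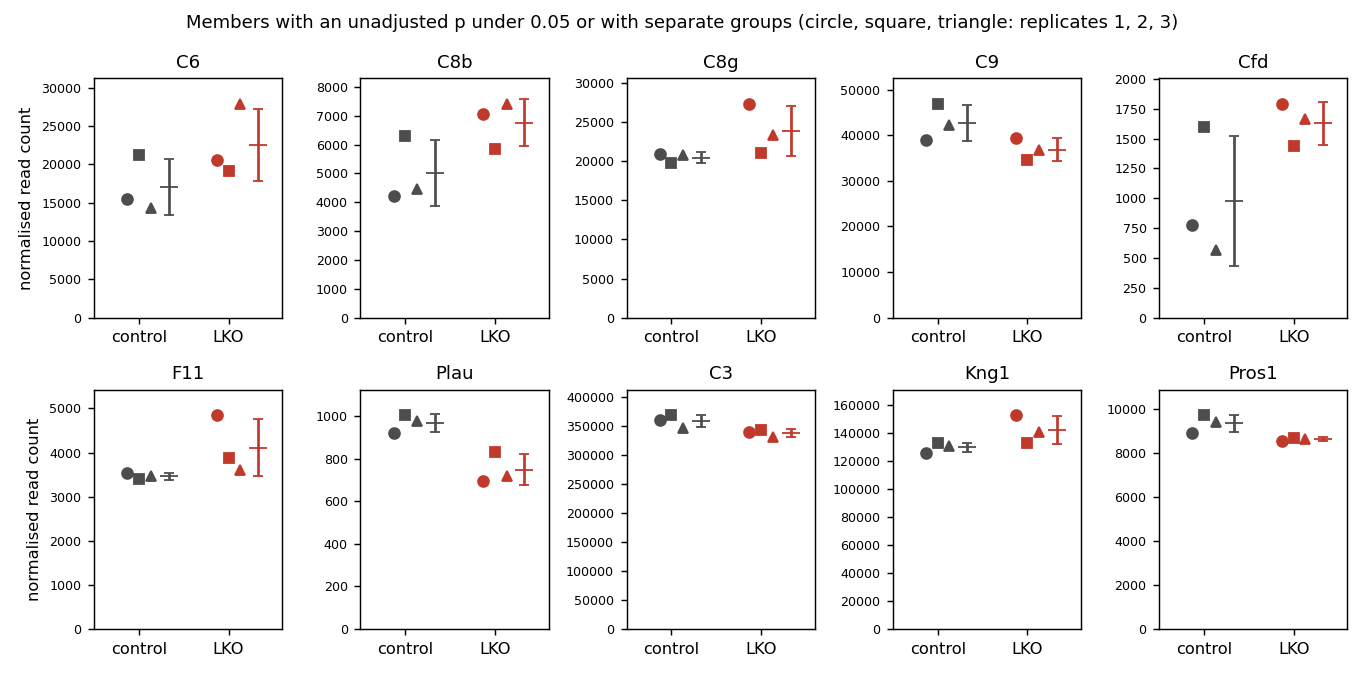
Normalised read counts (y axes, from 0) in each liver for the 10 members with an unadjusted p under 0.05 or with separate groups, with the group mean and SD (n = 3) beside the points. Plau, C3 and Pros1 lie lower in all 3 LKO livers, while for C6, C8b and Cfd control 2 reaches the LKO range.

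Of 31 other genes of coagulation and fibrinolysis, all in the table, 5 (16.1%) had an unadjusted p under 0.05, against 5.68% of all genes tested. None of the 31 passed in limma, edgeR or DESeq2. Hrg, histidine-rich glycoprotein, was higher at 0.20 (SE 0.09). Tfpi, the inhibitor of tissue factor and factor VIIa, was lower at -0.25 (SE 0.07, limma adjusted p = 0.72), and lower too were Fgl1 (-0.40) and Fgl2 (-0.28), both fibrinogen-like proteins, and A2m (-0.57), a protease inhibitor at 26 to 52 counts. Among 16 regulators of liver secretory genes, Cebpb (-0.22, SE 0.08, limma adjusted p = 0.84) alone had an unadjusted p under 0.05 (6.25%, against 5.68% of all genes tested). Hnf4a and Stat3, factors that act at promoters of this class, differed by 0.04 and -0.0022.

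By source, 37 members are known mainly from hepatocytes. They had 27 means above control and 10 below, with a median difference of 0.04. Of them, 5 (13.5%) had an unadjusted p under 0.05, against 5.68% of all genes tested. The 12 known from other or several cell types had 3 above and 9 below, a median of -0.06, and 2 (16.7%) with such a p. LKO 1 was the highest liver for 20 of the 49 members (40.8%, against 25.5% of all genes tested), and control 3 was the lowest for 16 (32.7%, against 16.6%). LKO 1 also had the highest total value of the 6 livers.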

How the data were processed

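PolyA-selected liver RNA of 3 control and 3 Blnc1 LKO mice was sequenced. The authors used STAR for alignment to mm10, HTSeq for counting (strand setting not stated) and DESeq2 for testing. Versions and annotation are not given in the sources used here. The deposited values are a normalised signal: the reads of a gene over the scaling factor of its liver. Within a tolerance of 0.1, 100% of values came out as whole reads once divided by the value of 1 read.

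The single comparison was LKO against control. The main test was limma (version 3.58.1, R 4.3.3; lmFit and eBayes with trend) on log2(value + 1) of 17297 genes that reached 1 in 3 or more livers, and p-values were adjusted over all of these by Benjamini-Hochberg, with a threshold of 0.05. Alternatives were edgeR (4.0.16) and DESeq2 (1.42.0) on the recovered reads, another pseudocount, other filters, scaling by totals, the replicate number as a block and each liver left out. On simulated data with 200 genes changed by 1.5 on the log2 scale among 17297, limma recovered 91.5%, with 16.8 unchanged genes called on average over 5 runs. That change was larger than the difference of any member (at most 0.87, for Cfd). The recovery therefore does not tell how often differences of the members' size would be found.

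Members and lists were chosen with earlier results of these data known, so no list is independent evidence. Full values are given for members with an unadjusted p under 0.05 or separate groups, for the chains of C1q, C8 and fibrinogen, and for the highest member per length of each role. Outside the members, pathway genes with an unadjusted p under 0.05 and markers that move with a member are named. The genes C4a, Hc, C7, Hnf4a, Stat3, Cd68, Mpeg1, Cd14, Csf1r, Lyz2, Cd5l, Dcn, Des, Lum, Pdgfrb, Lrat and Reln were added after their values were seen. Gene lengths and positions are from GENCODE M21 and promoter sequences from RefSeq, both GRCm38.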

Additional observations from a re-analysis of the deposited data

How the results depend on the processing

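No member passed an adjusted p under 0.05 in limma, edgeR or DESeq2, nor under any alternative run. Still, edgeR with TMM, limma and DESeq2 gave 6, 7 and 7 members with an unadjusted p under 0.05. The sets of members differed. Cfd had an unadjusted p of 0.109 in DESeq2 and 0.0231 in limma, while Fgb had 0.038 in DESeq2 and 0.12 in limma. The share of all genes at an unadjusted p under 0.05 is given only for the main limma fit (5.68%). In limma the count of members ranged from 1 (without control 3) to 10 (without LKO 2) when a liver was left out. It was 3 without control 1, 4 without LKO 1 and 3 without LKO 3, and 5 with the filter of at least 10 in every liver. The cause was not tested. Over all genes, limma called 1 gene, with 2 without a filter on low values, 2 in edgeR with either scaling, 84 in DESeq2 and 0 to 13 with a liver left out. Of the 17 members with values under the alternatives, 14 kept the sign of their difference in each fit that left out a liver. The differences of C1qa, C1qb and C1qc ranged from -0.0987 to 0.0853, -0.110 to 0.0720 and -0.131 to 0.0564, and were positive without LKO 1 (C1qa also without control 1, at 0.015). Scaling by totals moved the median difference of all genes from -0.00099 to -0.00645.

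The labels do not pair livers of the same number, and the correlations of their deviations were -0.058, -0.019 and -0.107. Control 1 was closest to LKO 3 (0.105). With 3 livers a group, such correlations cannot show whether livers of the same number were handled together. With the replicate number as a block, 0 genes passed, and 5 members had an unadjusted p under 0.05.

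With 3 livers a group and a median SE of 0.09, the differences of most members were too small to be told from 0, which does not show that they are 0. Whole-liver mRNA says nothing of secreted or active protein.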
